A study of Rattus norvegicus with 6 samples.

Results

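The miR-29 family was followed in small RNA libraries labelled as injured rat testis, with and without heme oxygenase 1 (HO-1). This is the stress-inducible enzyme that breaks down heme. Members of the family were all rows of the deposited miRNA table whose name begins with miR-29a, miR-29b or miR-29c. These were 7 of 764 rows: rno-miR-29a-3p, rno-miR-29a-5p, rno-miR-29b-3p, rno-miR-29b-1-5p, rno-miR-29b-5p, rno-miR-29c-3p and rno-miR-29c-5p. Of the 7, 6 had a value above 0 in some library, as did 570 rows of the whole table. Male Sprague Dawley rats gave 3 libraries labelled HO-1 knockout and 3 labelled WT (wild type), and the tissue is labelled testicle. In all 6, the left testis had been twisted by 720° for 2 h and then left untwisted for 3 days, so knockout and wild type shared the injury and no uninjured testis was analysed here. Neither the rats' age nor how the HO-1 gene was deleted is given in the sources used here. The comparison was therefore between genotypes after the same ischemia and reperfusion.

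The miR-29 family consists of mature miRNAs cut from 4 hairpins, which lie in the genome as neighbouring pairs: miR-29a with miR-29b-1, and miR-29b-2 with miR-29c. A mature miRNA guides the silencing complex to messenger RNAs that pair with its seed, the bases near its 5′ end. The 3p arm is the guide strand of this family, and the 5p arm of each hairpin is the passenger strand, most of which is degraded. The family is known for repressing messenger RNAs of collagens, elastin and other matrix proteins, and of the de novo DNA methyltransferases. Its loss from fibroblasts and hepatic stellate cells is known from scarring heart, liver, lung and kidney, which is why it is called antifibrotic.

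The 3 guide strands are shown because the results turn on how they differ. The sequences are from RefSeq (GRCr8), 5′ to 3′, with the seed, bases 2 to 8, in capitals.
miR-29a-3p: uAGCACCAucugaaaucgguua
miR-29b-3p: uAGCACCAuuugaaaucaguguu
miR-29c-3p: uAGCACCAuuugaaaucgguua
All 3 share the seed AGCACCA, and no other of the 517 miRNAs with a value above 0 and a RefSeq sequence had it at bases 2 to 8. Counted from 1 at the 5′ end, miR-29c-3p differs from miR-29a-3p by 1 substitution, C10U. miR-29b-3p differs from miR-29c-3p by 3 substitutions, G18A, U21G and A22U, and is 1 base longer. It ends in AGUGUU, a tail known from work in human cells to direct miR-29b to the nucleus. Among the same 517 miRNAs, 2 (0.387%) end in these letters, miR-29b-3p and miR-92b-5p.

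The hairpins are shown because only the 5p arms tell the miR-29b loci apart. The mature arms are in capitals, from the same RefSeq table.
Mir29a: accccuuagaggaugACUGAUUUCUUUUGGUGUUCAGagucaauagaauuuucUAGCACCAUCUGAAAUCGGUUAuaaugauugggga
Mir29b1: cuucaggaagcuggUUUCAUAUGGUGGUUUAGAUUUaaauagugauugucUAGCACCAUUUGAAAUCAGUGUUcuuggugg
Mir29b2: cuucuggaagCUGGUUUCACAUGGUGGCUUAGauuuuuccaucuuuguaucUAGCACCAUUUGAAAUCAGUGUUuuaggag
Mir29c: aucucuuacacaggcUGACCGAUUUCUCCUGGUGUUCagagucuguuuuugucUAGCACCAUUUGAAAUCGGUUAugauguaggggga
The miR-29b-3p sequence is the same in Mir29b1 and Mir29b2, so its reads cannot be assigned to either. The row named miR-29b-5p in the table has the RefSeq sequence of the Mir29b2 arm and is called miR-29b-2-5p below. The annotated arm of Mir29b1, miR-29b-1-5p, starts 4 bases further along its hairpin than the Mir29b2 arm does along its own. At the same place the Mir29b2 hairpin differs from it by U6C and U14C.

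Depth and tissue markers bear on every value below. Values are reads per 1000000 reads assigned to miRNAs (RPM), given below in the order of libraries 1, 2 and 3 of each genotype. Library totals, recovered from the size of 1 read, were 9128924 to 10042673 reads for wild type and 8300536 to 9809055 for knockout. miR-122-5p, a miRNA of hepatocytes, held 32.7% to 36.6% of the reads in wild type and 40.2% to 46.4% in knockout libraries, although the tissue is labelled testicle. Both markers of the hepatocyte list, the 5p and 3p arms of miR-122, were detected. They summed to 328377 to 366899 RPM in wild type against 403907 to 464870 RPM in knockout libraries, nearly all of it miR-122-5p. miR-122-3p was not higher in the knockout, with means of 1420 RPM in wild type and 1326 RPM in knockout libraries. Neither arm passed the test by genotype (limma adjusted p = 0.095 for miR-122-5p and 0.61 for miR-122-3p). The 3 markers of meiotic and postmeiotic germ cells were all detected but summed to 31.9 to 49.0 RPM in wild type against 24.0 to 28.9 RPM in knockout libraries. Of the 2 gonadal markers, miR-202-3p was listed at 0 in every library and miR-202-5p stood between 0.71 and 2.22 RPM. With these marker levels, which tissue the values describe is unsettled, and it was not tested. The HO-1 messenger RNA was not measured, so the knockout label could not be checked here.

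miR-29a-3p stood far above every other member of the family. The guide strands summed to 4719 ± 237 RPM in wild type libraries against 4500 ± 538 RPM in knockout libraries (SD, n = 3), which is 0.390% to 0.496% of all reads in the 6 libraries. miR-29a-3p held 97.3% ± 0.1 of that sum for wild type and 95.7% ± 0.2 for knockout. It ranked 24 of all miRNAs by mean RPM, between miR-30a-5p at 5036 and miR-7a-5p at 4346 RPM. miR-29b-3p ranked 117, between miR-1843a-5p and miR-203b-3p, and miR-29c-3p ranked 149, between miR-96-5p and miR-10a-3p. Below the guide strands came miR-29c-5p, with a mean over the 6 libraries of 10.3 RPM, miR-29b-2-5p with 1.61 RPM and miR-29a-5p with 0.528 RPM. miR-29b-1-5p was listed at 0 in every library, where 3 reads would be 0.299 to 0.361 RPM. The ranges of neighbours in this order over the 6 libraries did not overlap, except those of miR-29b-2-5p and miR-29a-5p, which met at 1.33 RPM in knockout library 2. The libraries were made by ligation, and how well each sequence ligates was not measured, so the order of levels between members is one of reads.

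**Figure D1:**
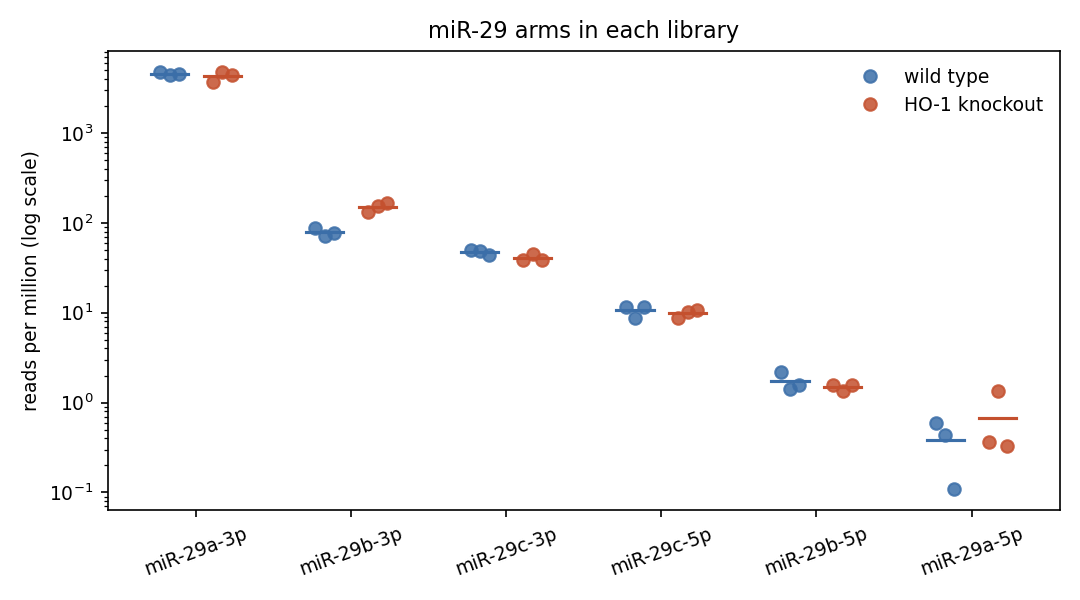
Level of each detected miR-29 arm, in RPM on a log scale, with 1 point per library (3 wild type, 3 HO-1 knockout) and a bar at each group mean; miR-29b-5p is the Mir29b2 arm, and miR-29b-1-5p, at 0 in all 6 libraries, cannot be drawn. miR-29b-3p is the arm whose knockout points (131.3 to 164.8) all lie above the wild type points (72.3 to 87.8).

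miR-29b-3p rose in the knockout. This guide strand, made from both the Mir29b1 and Mir29b2 hairpins, had 87.8, 72.3 and 77.3 RPM in the wild type libraries. The knockout libraries had 131.3, 154.6 and 164.8 RPM. The groups did not overlap, and the lowest knockout library was 43.5 RPM above the highest wild type library. Mean levels were 79.2 ± 7.9 RPM for wild type and 150.2 ± 17.2 RPM for knockout (SD, n = 3), a 1.9-fold difference. The log2 change on the scale of log2(RPM + 1) was 0.91 (SE 0.15, 95% interval 0.58 to 1.25, limma adjusted p = 0.016 by the Benjamini-Hochberg method over 570 miRNAs). The authors' deposited table gives a log2 fold change of 0.92 with a p-value of 2.78e-11 for it. These values rested on 660 to 882 reads per wild type and 1090 to 1516 per knockout library. Counting alone would give a coefficient of variation of 3.63% and 2.71%, against about 10% and 11.4% observed between libraries.

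Few miRNAs rose as much. At an adjusted p below 0.05 (limma), 1 of the 6 tested members was called higher and 0 lower, and over all 570 tested miRNAs 0.702% were called higher and 5.61% lower. That is 4 higher and 32 lower calls. TMM scaling changed the split to 20 higher (3.51%) and 29 lower (5.09%), still with 1 miR-29 member called. In 25 of the 570 (4.39%) all 3 knockout libraries lay above all 3 wild type libraries, and miR-29b-3p was the 1 member among them. The median log2 change over the 218 miRNAs whose mean reached 10 RPM was -0.29, and 2 of them had a larger positive change than miR-29b-3p, while 21 had a negative change of larger size (4 with TMM scaling). Relative to that median, miR-29b-3p was higher by 1.20 on the log2 scale. TMM scaling moved the median to -0.07 and the change of miR-29b-3p to 1.14 (limma adjusted p = 0.0012), 1.21 above the median. The call was lost without wild type library 2, knockout library 2 or knockout library 3 (limma adjusted p = 0.055, 0.055 and 0.085), with log2 changes of 0.85, 0.89 and 0.84.

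**Figure D2:**
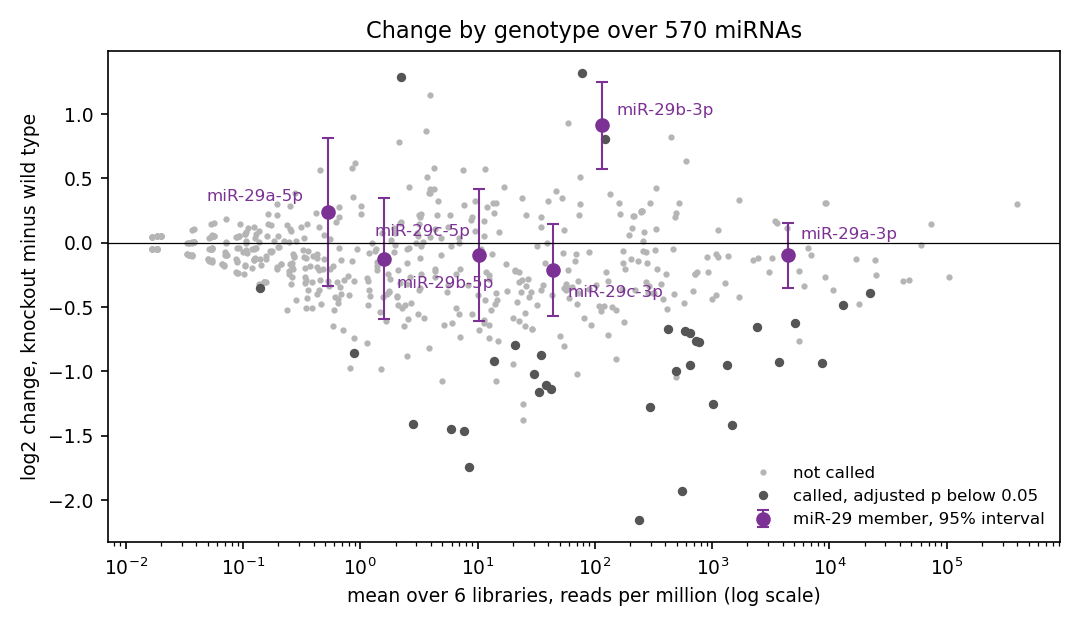
Log2 change by genotype (vertical axis, knockout minus wild type, log2(RPM + 1)) against mean level (horizontal axis, RPM, log scale) for the 570 tested miRNAs, with limma's 95% interval on the 6 tested miR-29 members. The interval of miR-29b-3p (0.58 to 1.25) lies above 0 and those of the other 5 members include 0; without wild type library 2, knockout library 2 or knockout library 3 miR-29b-3p was not called.

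Some markers of smooth muscle and fibroblasts and of endothelium were called lower in the knockout. Their part in the miR-29b-3p difference was not tested. The marker lists were chosen with earlier results of these data known. In these bulk samples fewer cells of a type and less RNA per cell cannot be told apart. Of the 5 smooth muscle and fibroblast markers, all detected, 3 fell (limma), where 5.61% of all tested miRNAs were called lower. The list summed to 11804 to 18895 RPM in wild type but 6606 to 8802 RPM in knockout libraries. Of the 3 that fell, miR-145-5p and miR-199a-3p were not called without wild type library 2, wild type library 3 or knockout library 2. miR-199a-3p had 3513, 1398 and 1648 RPM in the wild type libraries. Both endothelial markers, the 5p and 3p arms of miR-126a, fell (limma), with sums of 25222 to 26982 and 19147 to 21287 RPM. With TMM scaling 1 of them did, miR-126a-5p, where 5.09% of all tested miRNAs were called lower. miR-126a-3p, which held most of the sum, did not pass with TMM scaling (limma adjusted p = 0.53). None of the 4 leukocyte or 3 red blood cell markers passed, except 1 leukocyte marker called higher with TMM scaling. That scaling called 3.51% of all tested miRNAs higher. The leukocyte markers, all detected, summed to 757 to 871 RPM in wild type and to 811 to 923 RPM in knockout libraries, and the red blood cell markers, also all detected, to 437 to 541 and 353 to 436 RPM. When totals were taken without miR-122-5p, whose share was higher in the knockout, the log2 change of miR-29b-3p was 1.11 (limma adjusted p = 0.0035).

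miR-29a-3p, the main guide strand, did not pass the test. The wild type libraries held 4823, 4366 and 4590 RPM of it, and the knockout libraries 3727, 4731 and 4469 RPM. Knockout library 1 was the lowest of the 6, and the other knockout libraries lay within the wild type range. The means were 4593 ± 228 and 4309 ± 521 RPM (SD, n = 3), so that the log2 change was -0.10 (SE 0.11, 95% interval -0.35 to 0.16, limma adjusted p = 0.64). Its counting error was 0.477% for wild type and 0.505% for knockout, against 4.97% and 12.1% observed between libraries. The sign depended on the scaling, and with TMM the log2 change was 0.13 (limma adjusted p = 0.58).

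miR-29c-3p, which differs from miR-29a-3p by 1 base, did not pass either. Wild type libraries gave 50.5, 48.1 and 43.6 RPM, and knockout libraries 38.8, 45.5 and 38.3 RPM. Knockout library 2 lay inside the wild type range and the other knockout libraries below it. The means were 47.4 ± 3.5 and 40.8 ± 4.0 RPM (SD, n = 3), so that the log2 change was -0.21 (SE 0.15, 95% interval -0.57 to 0.14, limma adjusted p = 0.47), and with TMM scaling the change was 0.01 (limma adjusted p = 0.98). No rule for assigning reads with a mismatch is given in the sources used here. Whether reads were exchanged between these rows, of which miR-29a-3p held at least 90.8 times as many reads in every library, was not tested.

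Ratios between guide strands of the same library do not depend on the library's total. miR-29a-3p exceeded miR-29b-3p 54.9, 60.4 and 59.3 times in the wild type libraries but 28.4, 30.6 and 27.1 times in the knockout libraries. The groups did not overlap, and the ratio of miR-29b-3p to miR-29a-3p was 2.03-fold higher in the knockout, a difference of 1.02 on the log2 scale. With 3 against 3 libraries the exact two-sided permutation p was 0.1, the smallest possible, and the Benjamini-Hochberg adjusted p over 7 ratios, shares and sums was 0.23. miR-29b-3p exceeded miR-29c-3p 1.74, 1.503 and 1.77 times in the wild type libraries but 3.385, 3.399 and 4.31 times in the knockout libraries. That ratio was 2.20-fold higher in the knockout, again without overlap (exact permutation p = 0.1, adjusted p = 0.23).

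The third ratio, miR-29a-3p over miR-29c-3p, overlapped between genotypes. The wild type libraries gave 95.5, 90.8 and 105.3, the knockout libraries 96.1, 104.1 and 116.8 (exact permutation p = 0.4, adjusted p = 0.60). The share of miR-29b-3p in the summed guide strands was 1.67% ± 0.08 for wild type and 3.34% ± 0.20 for knockout (SD, n = 3). The summed guide strands, mostly miR-29a-3p, overlapped between genotypes, with a log2 difference of -0.07 (exact permutation p = 0.6, adjusted p = 0.60). The sign of that difference depended on the scaling and was 0.15 with TMM (exact permutation p = 0.2).

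**Figure D3:**
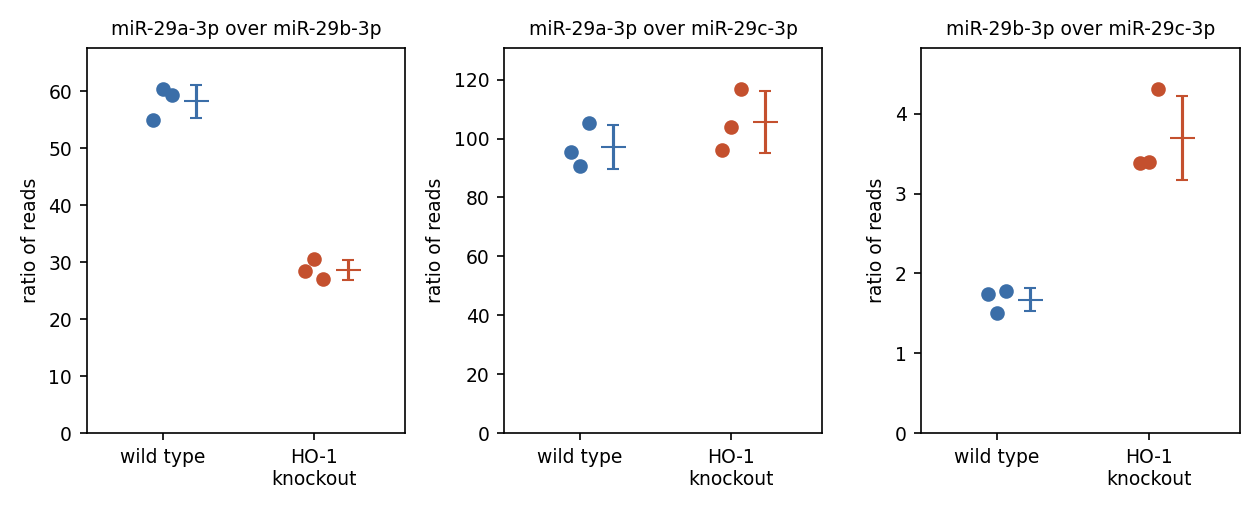
Ratios of reads between the guide strands within each library, with 1 point per library and the group mean ± SD (n = 3) beside the points; each axis starts at 0. The ratios that involve miR-29b-3p separate the genotypes, and miR-29a-3p over miR-29c-3p (90.8 to 116.8 over the 6 libraries) does not.

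The passenger strands stood in another order than the guide strands. miR-29c-5p, from the hairpin of the least abundant guide, held 79.5% to 87.4% of all 5p reads of the family. Wild type libraries had 11.7, 8.76 and 11.7 RPM, and knockout libraries 8.67, 10.3 and 10.8 RPM. The groups overlapped (log2 change -0.09, SE 0.22, limma adjusted p = 0.79; 0.11 with TMM scaling). miR-29a-5p, from the hairpin of the most abundant guide, had 30 reads over the 6 libraries. Wild type libraries had 0.6, 0.44 and 0.11 RPM and knockout libraries 0.36, 1.33 and 0.33 RPM (limma adjusted p = 0.61), with 13 of its reads in knockout library 2.

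Among the miR-29b passenger strands, only the arm of Mir29b2 was detected. For miR-29b-2-5p, wild type libraries had 2.19, 1.42 and 1.58 RPM and knockout libraries 1.57, 1.33 and 1.56 RPM. The groups overlapped, and it did not pass the test (log2 change -0.13, SE 0.20, 95% interval -0.60 to 0.34, limma adjusted p = 0.71; 0.02 with TMM scaling). It rested on 13 to 22 reads per library, so its counting error was 24.5% for wild type and 27.4% for knockout. miR-29b-1-5p had 0 of 50 reads of both arms in wild type and 0 of 40 in knockout libraries, which allow a share of up to 6.0% and 7.5% at 3 reads. PCR copies were not removed, so these limits, and the intervals below, cover counting error only. The sources used here do not say whether reads that start before the annotated first base of miR-29b-1-5p were counted, so the 0 describes this annotated entry and not the output of the Mir29b1 hairpin.

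The share of the 5p arm differed between hairpins by orders of magnitude. For miR-29a it was 0.0124%, 0.0101% and 0.0024% in the wild type libraries against 0.00966%, 0.0281% and 0.00738% in the knockout libraries. For miR-29c it was 18.8%, 15.4% and 21.2% in the wild type libraries against 18.3%, 18.5% and 22% in the knockout libraries. Neither differed between genotypes beyond its spread (exact permutation p = 0.6 for each, adjusted p = 0.60). Among 84 miRNAs with both arms in the table and a summed mean of at least 100 RPM, the rarer arm had a median share of 1.18%. Of these 84, 7 had a lower share than miR-29a, whose mean over the 6 libraries was 0.0117%. miR-29c, with both arms together below 100 RPM, had a mean share of 19.0%, exceeded by 13 of the 84.

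For miR-29b the 5p share did not overlap between genotypes, the knockout values being the lower ones. The wild type libraries had 2.43%, 1.93% and 2.002%, the knockout libraries 1.18%, 0.853% and 0.938%. The means were 2.12% ± 0.27 and 0.991% ± 0.170 (SD, n = 3), and the exact permutation p was 0.1, the smallest possible (adjusted p = 0.23). From reads, wild type library 2 had 13 of 673 (exact Clopper-Pearson 95% interval 1.03% to 3.28%) and knockout library 1 had 13 of 1103 (0.629% to 2.01%), so these neighbouring libraries were not separable by counting alone. The 5p reads numbered 50 for wild type and 40 for knockout, against 2275 and 4088 reads of miR-29b-3p. Because miR-29b-3p is part of the share and miR-29b-2-5p overlapped between genotypes, this is not a result separate from the rise of miR-29b-3p. The 3p reads may come from both Mir29b1 and Mir29b2, whereas the 5p reads were all of the Mir29b2 entry, so the share is not that of 1 hairpin.

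**Figure D4:**
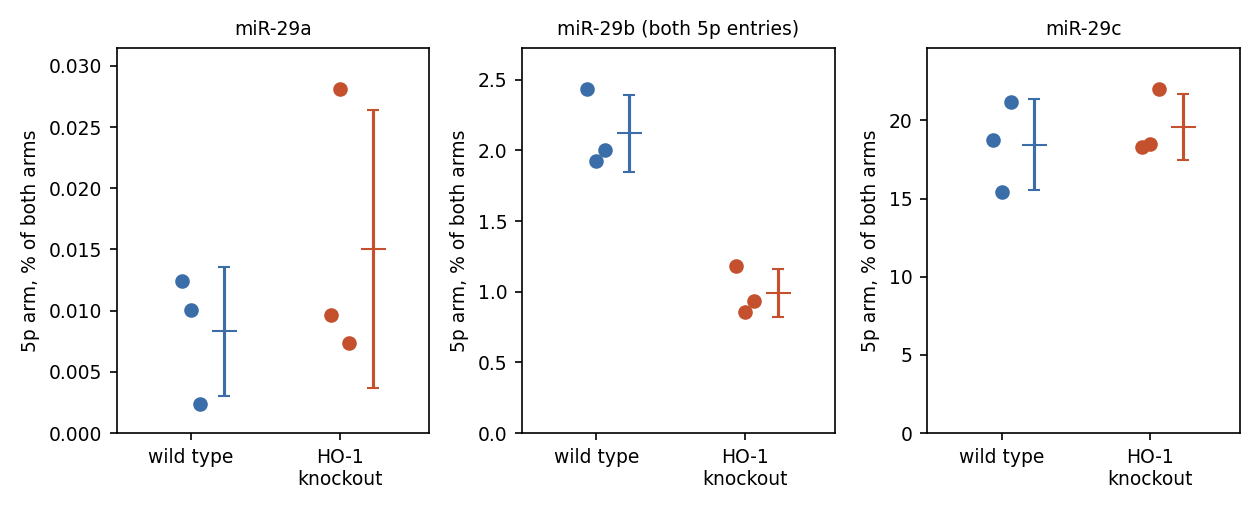
Share of the 5p arm in both arms of miR-29a, miR-29b and miR-29c, in percent, with 1 point per library and the group mean ± SD (n = 3) beside the points; the axes start at 0 and differ in scale. miR-29b separates the genotypes (1.93% to 2.43% against 0.853% to 1.18%), while miR-29a and miR-29c overlap. The miR-29b share includes miR-29b-3p, which may come from both Mir29b1 and Mir29b2, so it is not separate from the rise of that arm.

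The table also lists 3 miRNAs annotated on the opposite strand of the guide strands. These are miR-3556a opposite miR-29a-3p, miR-3587 opposite miR-29b-3p, and miR-3556b opposite miR-29c-3p. All 3 were listed at 0 in every library.

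No other miRNA of the lists linked to fibrosis was called higher in the limma fit on plain totals. Of 10 miRNAs linked to its promotion, 3 fell, 0 rose and 7 did not pass (limma), against 5.61% called lower over all 570 tested miRNAs. The list's median log2 change was -0.98, against -0.12 over all 570 and -0.29 over the 218 of at least 10 RPM. The 3 were miR-199a-3p and miR-145-5p, of smooth muscle and fibroblasts, and miR-221-3p, named after its value was seen. miR-221-3p and miR-222-3p are in the study's title, so their direction is not independent evidence. The whole list was chosen with earlier results of these data known, so its counts and median are a description only. The most abundant of the list, miR-21-5p, which rises in many injured tissues, had 70161 ± 2243 RPM in wild type against 77665 ± 2604 RPM in knockout libraries (SD, n = 3, limma adjusted p = 0.32). miR-192-5p, the second most abundant, stood at 52273 ± 3175 and 42844 ± 1839 RPM (limma adjusted p = 0.091). Leaving out 1 library gave 1 or 2 falling members, the lowest without wild type library 3 or knockout library 2. The fits with 1 library left out called 5 to 22 of all miRNAs lower. edgeR's quasi-likelihood test on recovered reads gave 6, where it called 6.14% of all miRNAs lower. DESeq2 also gave 6, with 37 of all miRNAs called lower. The filter of a mean of at least 10 RPM gave 7, with 41 of 218 miRNAs called lower.

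Of 12 miRNAs linked to restraint of fibrosis, other than miR-29, 3 fell, 0 rose and 9 did not pass (limma), against the same 5.61% called lower. The list's median log2 change was -0.32, near the -0.29 over the 218 miRNAs of at least 10 RPM. The 3 were miR-30a-5p and the epithelial miR-200a-3p and miR-200b-3p, of which the latter pair was named after their values were seen. This list too was chosen with earlier results known, so its counts and median are likewise a description only. miR-30a-5p had 6105 ± 366 RPM in wild type against 3968 ± 388 RPM in knockout libraries (SD, n = 3), so that its log2 change was -0.62 (limma adjusted p = 0.016, SE 0.10). Without knockout library 3 the count was 1, miR-200b-3p, where 5 of all miRNAs were called lower. With the filter of at least 10 RPM it was 4 of the 10 tested, against the same 41 of 218. miR-26a-5p, the most abundant of the list, stood at 46396 ± 1815 and 37751 ± 508 RPM (limma adjusted p = 0.056). With TMM scaling the medians were -0.76 for the promoting and -0.09 for the restraining list, against -0.07 over those 218. The falling members again numbered 3 and 3, where TMM scaling called 5.09% of all 570 lower. With totals taken without the 10 most abundant miRNAs or without miR-122-5p, 1 member of each list, miR-21-5p and let-7d-5p, was called higher. DESeq2 called the same members higher. In that order these settings called 25, 17 and 35 of all miRNAs higher, against 4 in the limma fit on plain totals.

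Nearness in pattern was described, with no test, by the root mean square difference between centred log2(RPM + 1) values over the 6 libraries, among miRNAs of at least 100 RPM. Nearest to miR-29b-3p were miR-674-3p (0.20), miR-151-3p (0.24) and miR-128-3p (0.30), against a median of 0.59 over 119 miRNAs. miR-674-3p had 89.1 ± 11.7 RPM in wild type against 156.0 ± 17.5 RPM in knockout libraries (SD, n = 3). Nearest to miR-29a-3p were miR-122-3p (0.04), the passenger strand of the hepatocyte miRNA, let-7b-5p (0.06) and miR-466c-5p (0.07), against a median of 0.20. Nearest to miR-29c-3p were miR-148a-5p (0.03), miR-30e-3p (0.06) and miR-374-5p (0.06), against a median of 0.19 over 120 miRNAs. All points share the same 6 libraries and their totals.

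**Figure D5:**
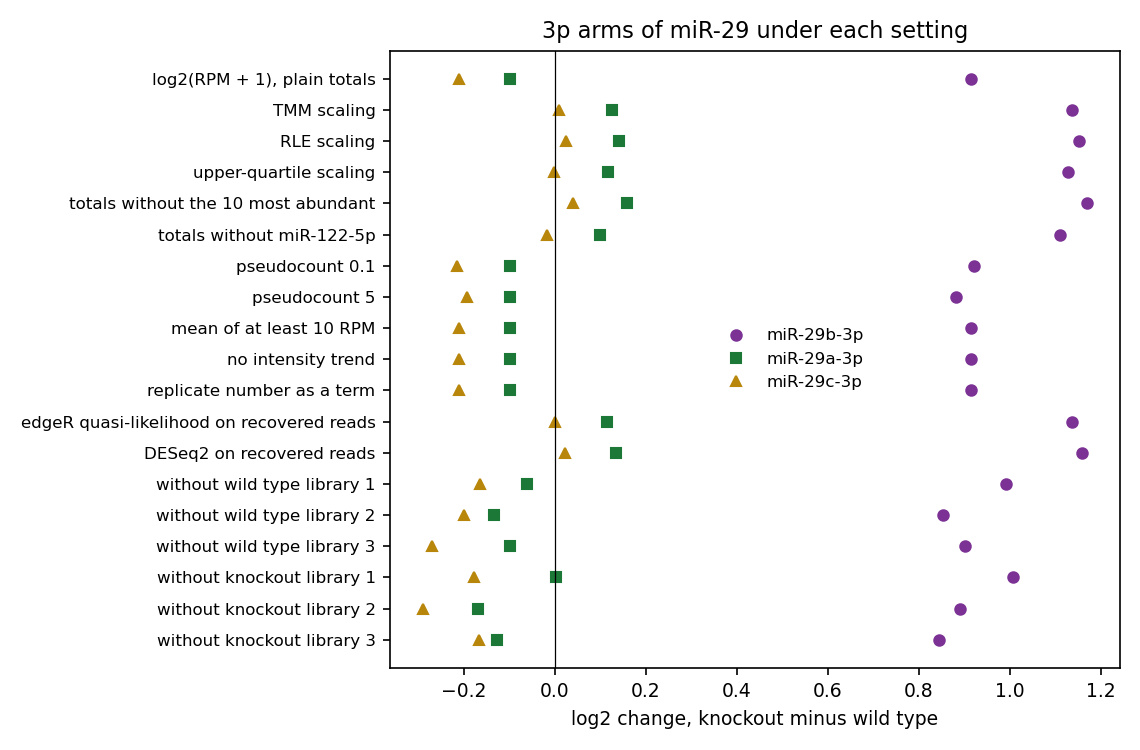
Log2 change by genotype (horizontal axis, knockout minus wild type) of the 3 guide strands under each scaling, pseudocount, filter, test and left-out library (vertical axis). miR-29b-3p stays between 0.84 and 1.17, while miR-29a-3p and miR-29c-3p lie on either side of 0 depending on the setting.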

How the data were processed

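Total RNA was made into small RNA libraries by adapter ligation and sequenced single-end, per the labels' protocols. The authors deposited 1 table of RPM, reads per 1000000 assigned reads, with a sum of 1000000 per library, and with their log2 fold change and p-value, per the file headers. No source used here says whether that p-value is adjusted. The submitters' processing notes name FastQC, BWA, edgeR and rn6, without role or version. The labels do not say that libraries came from separate animals, so a p-value here reflects the spread between libraries, which may be technical.

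limma 3.58.1 with an intensity trend (R 4.3.3) tested genotype, its only factor, on log2(RPM + 1) over the 570 miRNAs with any value above 0. Single values were compared by exact two-sided permutation (SciPy 1.17.1). Whole reads were recovered from the RPM steps: 97.8% to 98.9% of values lay within 0.0051 RPM of a whole read, and the reads summed to each total. For wild type library 1, 1 read is 0.0996 RPM, too near 0.1 for low values to separate it from rounding. edgeR 4.0.16 and DESeq2 1.42.0 on these reads were alternatives. Simulated data were used to try edgeR and limma with TMM scaling, but not DESeq2 or limma on plain totals. RefSeq sequences matched 689 of 764 names. The GRCr8 coordinates are not printed since the build differs from rn6. The rule for named miRNAs took the 7 members, their neighbours in rank and pattern, and the 4 most abundant of each of 2 fibrosis lists. Marker miRNAs, those sharing a sequence feature or opposite strand with a member, those in the study's title and, after their values were seen, called members of these lists are named too. Members and lists were chosen with earlier results of these data known.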

Additional observations from a re-analysis of the deposited data

How the results depend on the processing

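The log2 change of miR-29b-3p stayed between 0.88 and 1.17 and was called under all 12 other scalings, pseudocounts, filters and tests. With 1 library left out it was 0.84 to 1.01, and the call was lost in 3 of 6 fits. The number of called miRNAs was 36, against 61 with edgeR's quasi-likelihood test, 72 with DESeq2 and 5 to 26 with 1 library left out, the lowest without knockout library 3. With the replicate number as a block, 22 miRNAs were called and miR-29b-3p kept its log2 change of 0.91 (limma adjusted p = 0.046). Same-numbered libraries had correlations of their deviations of 0.033, 0.18 and 0.20, and not every library correlated best with its own number, so the numbers were not taken to pair the libraries. In the block, the exact sign-flip p of the log2 ratio of miR-29b-3p to miR-29a-3p (1.02) was 0.25, the smallest possible.

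Of the members that were not called, miR-29a-3p, miR-29c-3p, miR-29c-5p and miR-29b-2-5p changed sign with the scaling, which moved the median of all miRNAs, and miR-29a-5p changed sign only without knockout library 2. Under TMM, RLE, upper-quartile, totals without the 10 most abundant, totals without miR-122-5p (added after seeing the data), edgeR and DESeq2, miR-29a-3p had log2 changes of 0.13, 0.14, 0.12, 0.16, 0.10, 0.11 and 0.13. In that order miR-29c-5p had 0.11, 0.12, 0.10, 0.14, 0.085, 0.10 and 0.12. Under TMM, RLE, totals without the 10 most abundant, edgeR and DESeq2, miR-29c-3p had 0.0079, 0.023, 0.039, 0.0009 and 0.023. miR-29b-2-5p had 0.017, 0.026, 0.035, 0.0034 and 0.024 there, and 0.0099 with upper-quartile scaling. The summed guide strands differed by 0.15 with TMM, 0.18 without the 10 most abundant, and, added after seeing the data, 0.17 with RLE, 0.14 with upper quartile and 0.12 without miR-122-5p. With 1 library left out the ranges were -0.17 to 0.0028 for miR-29a-3p, -0.024 to 0.38 for miR-29a-5p, -0.14 to 0.026 for the summed guide strands and -0.39 to 2.5 percentage points for the 5p share of miR-29c. The log2 ratio of miR-29b-3p to miR-29a-3p then stayed between 0.98 and 1.07, and that to miR-29c-3p between 1.02 and 1.20. The cause of these changes was not tested. Depth limits miR-29a-5p and both miR-29b 5p arms, with at most 22 reads in any library.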
